A study of Sus scrofa with 6 samples.

Results

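The transcripts described here code for the proteins of the cytosolic and the mitochondrial ribosome, in IPEC-1 cells grown as air–liquid interface (ALI) or as submerged (SMC) culture. Members were taken by their symbol in the array's annotation, and the values were not used to choose them. Symbols beginning with RPL or RPS and a digit, without the RPS6K kinases, together with RPLP0 to RPLP2 and RPSA, were counted to the cytosolic ribosome. Those beginning with MRPL or MRPS and a digit were counted to the mitochondrial ribosome. Of 6765 measured genes, 122 met this rule, 64 of the cytosolic ribosome (38 of the large and 26 of the small subunit) and 58 of the mitochondrial ribosome (36 of the large and 22 of the small subunit).

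IPEC-1 is an epithelial line from the small intestine of newborn piglets. Both groups were grown on filter inserts in the same medium with epidermal growth factor and insulin, transferrin and selenium, from which serum was withdrawn before the last weeks of culture. SMC cultures were covered by a column of medium, ALI cultures by a thin liquid film. RNA was hybridized to 6 GeneChip Porcine Genome Arrays, with 1 ALI and 1 SMC array from each of passages P109, P111 and P113, which makes the replicates of a group 3 passages of a single cell line. The labels give jejunum as the source, while their free-text description names liver. The log2 values of the arrays ranged from 2.503 to 14.867, and their medians lay between 6.34 and 6.39. ALI replicate 3, of passage P113, stood apart from the other ALI arrays in several gene lists below, so both ribosomes are given by passage too. The 9 epithelial markers measured had a median mean signal of 12.32, with EPCAM at 13.39 in ALI and 13.32 in SMC. Among 5 enterocyte markers, FABP1 (3.33 and 3.23) and FABP2 (3.23 and 3.13) were dimmer than the lower quartile of each array, which lay between 4.518 and 4.616, and signals that low are not shown to exceed background. Of the other enterocyte markers, APOA1 had a mean signal of 8.59 over the 6 arrays and ANPEP of 5.31. APOA4, at 4.51, lay close to the lower quartile. The 6 liver markers had a median mean signal of 6.30, above the 4.51 of the 5 enterocyte markers, with ALB at 8.43 and AHSG at 7.42. For the 7 fibroblast and smooth muscle markers the median was 6.44. Whether these levels bear on the description in the labels was not tested.

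Ribosomes translate mRNA into protein. The cytosolic ribosome makes all proteins coded in the nucleus, including the whole set of mitochondrial ribosomal proteins, which are imported. The mitochondrial ribosome makes a handful of membrane proteins coded by mitochondrial DNA, all of them subunits of the respiratory chain or of ATP synthase. In both, the small subunit reads the mRNA and the large subunit forms the peptide bond. Cytosolic ribosomal protein mRNAs are among the most abundant of a growing cell, and their use is controlled to a large part at translation, through mTORC1 and a pyrimidine-rich tract at their 5′ end. Arrays see the amount of mRNA only, relative to the other mRNA of the sample. In RNA from whole cultures, fewer cells of a type and less RNA per cell cannot be told apart.

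Ribosomal protein transcripts differed little between the cultures. None of the 64 cytosolic and none of the 58 mitochondrial members was called at an adjusted p under 0.05 by limma, in either direction. The lowest adjusted p was 0.176 for a cytosolic member (RPS27L) and 0.177 for a mitochondrial member (MRPS9). Of all genes, 1.02% were called higher and 1.51% lower in ALI, and at such shares a list of this size holds few called genes, so the count of 0 is not read as particular to the ribosome. With the passage as a block, 6% of all genes were called, again with 0 of the members, at a lowest adjusted p of 0.126 for the cytosolic and 0.131 for the mitochondrial ribosome.

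At an unadjusted limma p under 0.05, 2 cytosolic members were higher (RPS27L and RPL37) and 0 lower. Of the mitochondrial members, 0 were higher and 4 lower (MRPS9, MRPL54, MRPS26 and MRPL45, the last chosen after its values were seen). The shares among all genes were 7.1% higher and 8.91% lower, so that these counts lay under the background. The methods' t-test, at the same unadjusted threshold, gave 10 cytosolic members higher, 2 of the large and 8 of the small subunit, and 1 lower, together with 0 mitochondrial members higher and 6 lower. By this test 7.1% of all genes were higher and 7.07% lower. Bright genes passed it more often. Of 63 other genes with a mean signal above 13, 14 were higher and 8 lower, beside 9 and 0 of the 54 cytosolic members in that range. The count of 10 is thus not read as particular to the ribosome. After Benjamini-Hochberg adjustment this test called 0 members and 0 of all probe sets.

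The intervals of the differences were narrow. For 62 of 64 cytosolic members (96.9%) and 55 of 58 mitochondrial members (94.8%), the 95% interval of the fold change lay within 1.5-fold in either direction, which held for 76.1% of all genes. The exceptions, named because there were few, were RPL30 (interval from -0.74 to 0.73 on the log2 scale) and RPL37 (0.01 to 0.63) of the cytosolic and MRPL33 (-0.05 to 0.73), MRPL4 (-0.59 to 0.14) and MRPL2 (-0.61 to 0.23) of the mitochondrial ribosome. The median residual SD of a gene was 0.0466 log2 units for the cytosolic members, 0.137 for the mitochondrial members and 0.152 for all genes. Of 63 other genes with a mean signal above 13, 92.1% had intervals within 1.5-fold, with a median residual SD of 0.0674. The share was 93% for 43 cytosolic translation factors and 100% for 17 genes of RNA polymerases I and III. Narrow intervals are thus not read as particular to the ribosome.

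**Figure D1:**
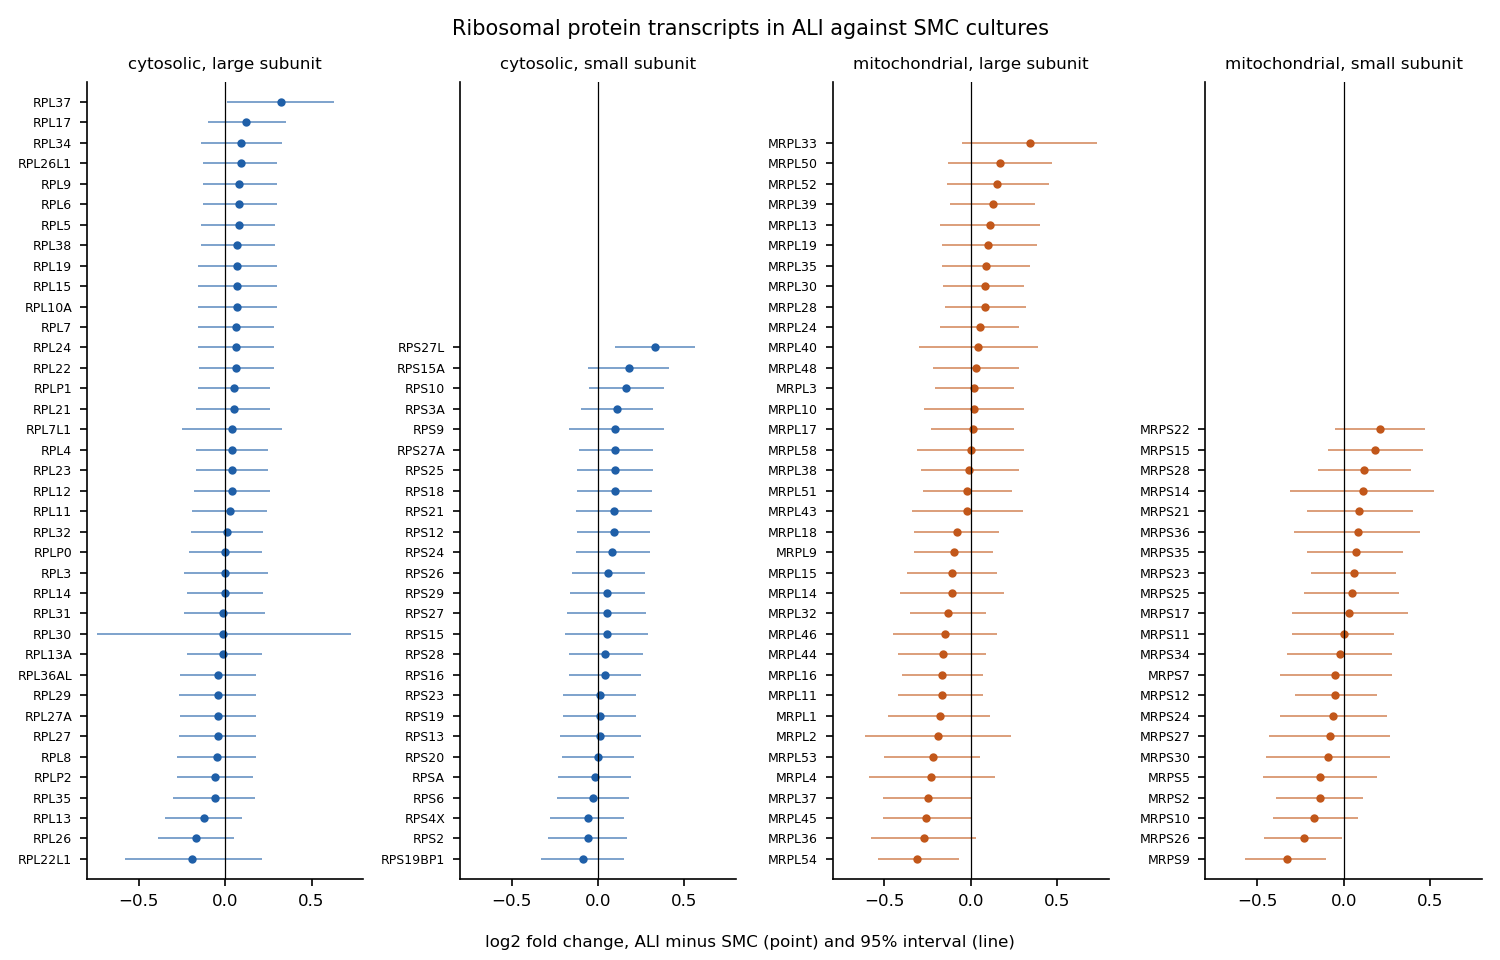
Log2 fold change of ALI over SMC (x axis) for each of the 122 genes (y axis, ordered by the fold change within each panel), with points for the estimate and lines for limma's 95% interval from 3 arrays per group. RPS27L, RPL37, MRPS9, MRPL54, MRPS26 and, barely, MRPL45 have intervals that leave out 0, and no gene lies farther from 0 than MRPL33 at 0.34.

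The cytosolic members had a median log2 fold change of 0.04, with values from -0.19 to 0.33, beside a median of 0.01 over all genes. The fold change was above 0 for 45 of 64 (70.3%), compared with 52.1% of all genes. By subunit, the large subunit had a median of 0.04 with 24 of 38 above 0, and the small subunit a median of 0.05 with 21 of 26 above 0. Most members lay closer to 0 than genes in general, as 53 of 64 (82.8%) differed by less than 0.1 log2 units, against 40.7% of all genes. Among 63 other genes with a mean signal above 13 this share was 55.6%.

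Small as they were, the values of the cytosolic members leaned to one side. All 3 ALI arrays lay above all 3 SMC arrays for 19 members, 7 of the large and 12 of the small subunit, while 11% of all genes did so. The opposite, all ALI below all SMC arrays, was seen for 2 members (RPL26 and RPL13, the latter chosen after its values were seen), and for 10.9% of all genes. Quantile normalization gave 16 and 4 (12.8% and 10.4% of all genes), and median centring 17 and 1 (11.4% and 10.3%). Groups separated more often among bright genes. In the values as deposited, 63 other genes had a mean signal above 13, where 54 of the 64 members lay. Of these other genes, 16 had all ALI above all SMC arrays and 9 had the opposite. The mean over the 64 members was 13.363 ± 0.0252 (SD, n = 3) on the ALI arrays and 13.327 ± 0.0203 (SD, n = 3) on the SMC arrays. This difference of 0.036 log2 units was larger than either SD. Values overlapped, since SMC replicate 3 at 13.345 lay above ALI replicate 2 at 13.335.

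Within passages, ALI exceeded SMC for 56 of 64 cytosolic members at passage P109 (87.5%, beside 50.8% of all genes), 36 at passage P111 (56.2% beside 44.8%) and 46 at passage P113 (71.9% beside 57.8%). The mean differences were 0.065, 0.004 and 0.039 log2 units in that order. All genes moved by -0.012, -0.04 and 0.032. The sign was positive in all 3 passages for 30 cytosolic members (46.9%) and negative in all 3 for 2 (3.12%), compared with 23.2% and 21% of all genes. At passage P113 the cytosolic mean moved about as far as that of all genes, while at passages P109 and P111 it lay above it.

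These transcripts sat at the upper end of the scale. The members' mean signals had a median of 14.08, and 54 of 64 lay above 13, with the highest value on any array being 14.867. In this range, 63 other genes were measured as well. Their median log2 fold change was 0.01, with 16 separated upwards and 9 downwards, beside a median of 0.04 with 16 upwards and 1 downwards for the 54 ribosomal members. In either direction, 39.7% of the other genes and 31.5% of the ribosomal members were separated. Whether signals near the upper end of the scale understate differences was not tested.

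**Figure D2:**
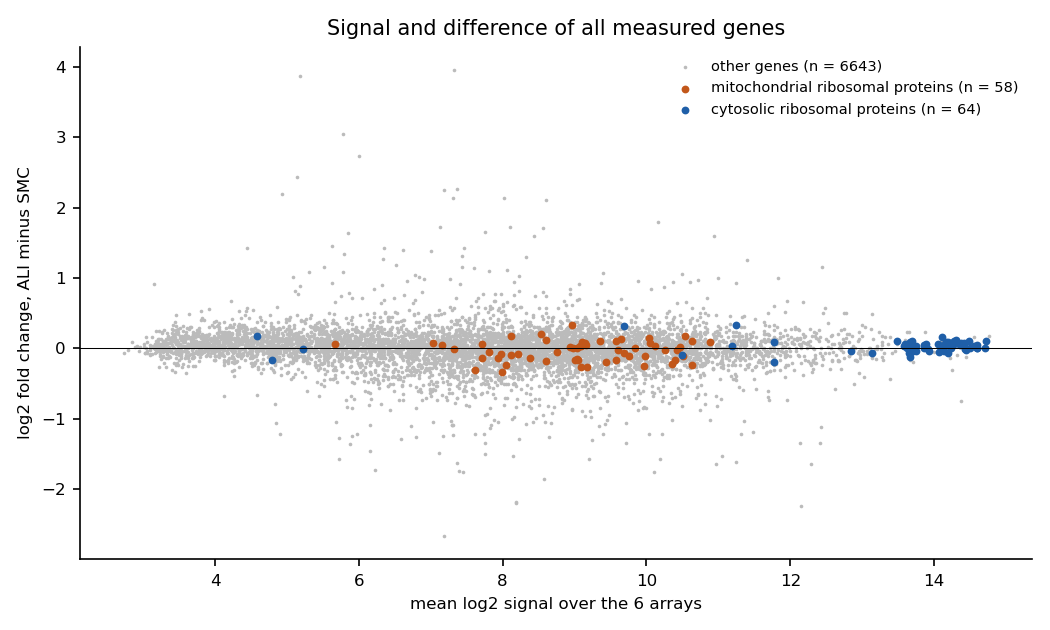
Mean log2 signal over the 6 arrays (x axis) and log2 fold change of ALI over SMC (y axis) for 6765 genes, with the cytosolic members in blue, the mitochondrial members in orange and all other genes in grey. The cytosolic members gather above a signal of 13 close to 0, while the mitochondrial members lie between 5.67 and 10.89.

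Among the large-subunit members, RPL37 had the largest difference. Its log2 signal was 9.58, 10 and 9.96 on ALI replicates 1 to 3 and 9.55, 9.44 and 9.58 on SMC replicates 1 to 3. ALI replicate 1 lay at the level of the SMC arrays, and the other two lay above them. The log2 fold change was 0.32 (SE 0.13) with an adjusted p of 0.326. RPL22L1, the paralog of RPL22, stood at the other end with 11.67, 11.49 and 11.86 in ALI and 11.55, 11.87 and 12.17 in SMC. These groups overlapped, at a log2 fold change of -0.19 (SE 0.17, adjusted p = 0.682). RPL26 read 4.69, 4.77 and 4.65 in ALI and 4.91, 4.89 and 4.83 in SMC. All ALI arrays were lower, but the signal lay just above the lower quartile of the arrays, and the log2 fold change of -0.17 had an adjusted p of 0.461.

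Other large-subunit members were level. RPL3, which reaches close to the site of peptide bond formation, had 13.67, 13.49 and 13.73 in ALI and 13.60, 13.64 and 13.64 in SMC, with a log2 fold change of 0.00 (interval from -0.24 to 0.25). RPLP0, the base of the stalk that recruits elongation factors and a common reference gene for quantitative PCR, had 14.59, 14.56 and 14.60 in ALI and 14.59, 14.59 and 14.58 in SMC. Its log2 fold change was 0.00, with an interval from -0.21 to 0.21. The paralogs and relatives were close to 0 as well, with RPL26L1 at 0.09 (SE 0.09), RPL36AL at -0.04 (SE 0.10) and RPL7L1, a nucleolar protein of ribosome assembly, at 0.04 (SE 0.13).

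In the small subunit, RPS27L showed the largest difference of the cytosolic ribosome. RPS27L is a paralog of RPS27 and a known target of p53. Its log2 signal was 11.42, 11.33 and 11.51 in ALI and 11.05, 11.09 and 11.14 in SMC. The groups did not overlap, and ALI was 1.25-fold higher (log2 fold change 0.33, SE 0.10, interval from 0.10 to 0.56), but the adjusted p of 0.176 missed the threshold. RPS27 itself, named for comparison with its paralog, had a log2 fold change of 0.05 (SE 0.10). RPS27L was read from 1 probe set, and whether its probes also match other transcripts was not tested.

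RPS10, one of the genes mutated in Diamond-Blackfan anaemia, had 14.16, 14.16 and 14.25 in ALI and 14.04, 14.01 and 14.04 in SMC. All ALI arrays lay above all SMC arrays, at a log2 fold change of 0.16 (SE 0.09, adjusted p = 0.483). RPS3A, chosen after its values were seen because it had the lowest p of the methods' t-test among the members, read 14.54, 14.52 and 14.55 in ALI and 14.42, 14.43 and 14.43 in SMC. The difference of 0.11 log2 units (SE 0.09, adjusted p = 0.653) was many times the scatter of these 6 arrays and nevertheless small. limma's standard error is pooled towards the spread of all probe sets and so exceeds the scatter of such a gene. RPS18 had 14.77, 14.72 and 14.82 in ALI and 14.67, 14.65 and 14.69 in SMC, again without overlap, at 0.10 (SE 0.09). Its further probe sets, with mean signals of 14.22 and 13.92, gave 0.03 and 0.04, and their groups overlapped.

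RPS15A, with the largest difference after RPS27L in this subunit, read 4.67, 4.56 and 4.78 in ALI and 4.47, 4.56 and 4.45 in SMC. Its SMC signals on replicates 1 and 3 lay below the lower quartiles of those arrays (4.567 and 4.519). That on SMC replicate 2 lay just above its own (4.518). On ALI replicate 2 the signal also lay below the array's lower quartile (4.613). The log2 fold change of 0.18 (SE 0.10) thus concerns a signal close to the range not shown to exceed background. RPS6, the substrate of S6 kinase, had 14.14, 14.09 and 14.13 in ALI and 14.13, 14.17 and 14.16 in SMC, a log2 fold change of -0.03. The remaining reference members were RPSA, also known as the laminin receptor, at -0.02 and RPS20 at 0.00. RPS19BP1 met the symbol rule but codes for a protein that binds RPS19 and is no subunit of the mature ribosome, and its log2 fold change was -0.09 (SE 0.10).

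**Figure D3:**
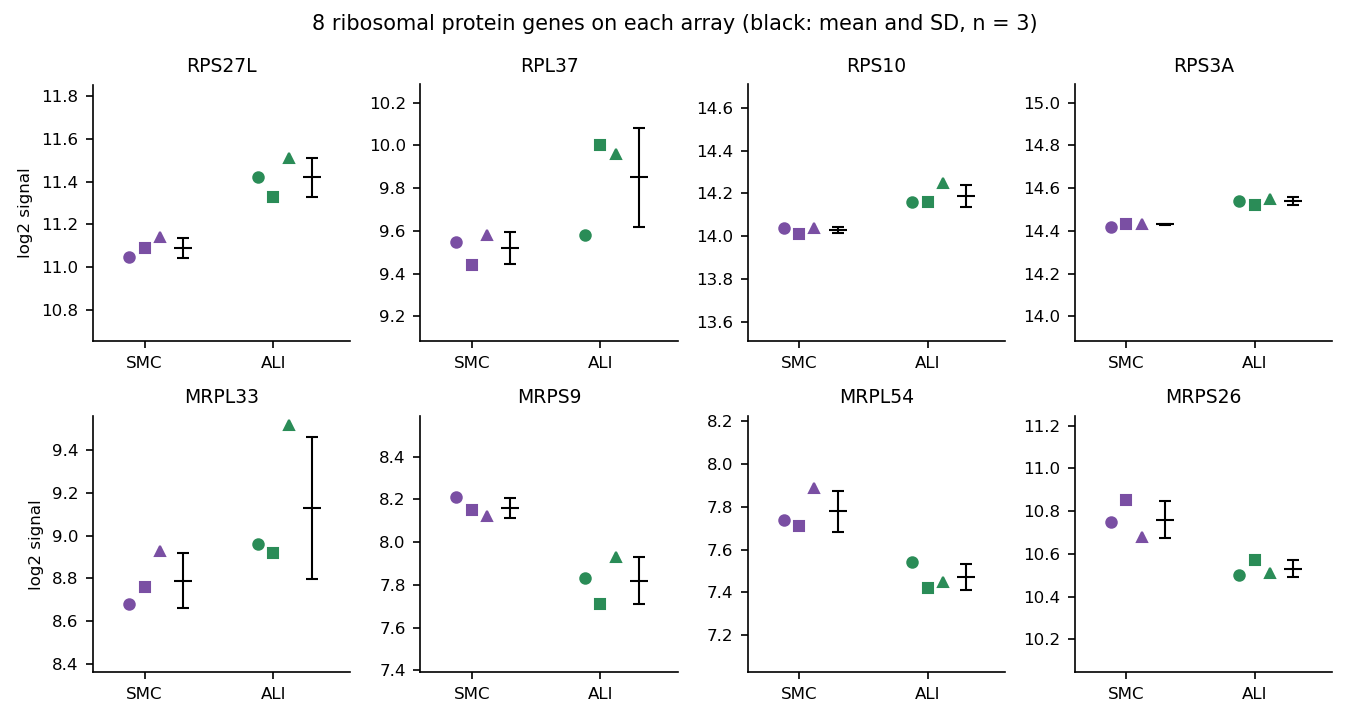
Log2 signal (y axis, 1.2 units high in each panel) of 8 ribosomal protein genes on the SMC (purple) and ALI (green) arrays, with circles for passage P109, squares for P111, triangles for P113 and black bars for mean and SD of 3 arrays. RPS27L, RPS10, RPS3A, MRPS9, MRPL54 and MRPS26 have no overlap between groups, while RPL37 and MRPL33 overlap.

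The mitochondrial members had a median log2 fold change of -0.02, with values from -0.33 to 0.34. The fold change was above 0 for 26 of 58 (44.8%). Large and small subunit were alike, with medians of -0.02 and -0.01. After quantile normalization the median was 0.021, so its sign depends on the scaling. All ALI arrays lay below all SMC arrays for 8 members, 6 of the large and 2 of the small subunit, and above them for 1, MRPS15 at 0.18, where 10.9% and 11% of all genes did so. Quantile normalization changed these counts to 6 below and 6 above, where 10.4% and 12.8% of all genes lay, and median centring to 5 below and 0 above, beside 10.3% and 11.4%. The counts were thus near or under the background in these settings. The 8 members were MRPL54, MRPL45, MRPL37, MRPL53, MRPL16, MRPL32, MRPS9 and MRPS26, of which all but MRPL54, MRPS9 and MRPS26 were named after their values were seen.

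One passage differed from the others. The mean over the 58 members was 8.997, 8.971 and 9.177 on ALI replicates 1 to 3 and 9.094, 9.125 and 9.034 on SMC replicates 1 to 3. ALI replicate 3 was the highest and ALI replicates 1 and 2 the lowest of the 6 arrays. ALI was below SMC for 40 of 58 members at passage P109 and for 48 at passage P111, with mean differences of -0.096 and -0.154 log2 units. At passage P113, ALI was above SMC for 44 of 58 members, with a mean difference of 0.143. That was 31%, 17.2% and 75.9% of the members higher in ALI at the 3 passages in turn, beside 50.8%, 44.8% and 57.8% of all genes, whose mean differences had the same signs. The group means, 9.048 ± 0.112 in ALI and 9.084 ± 0.0463 in SMC (SD, n = 3), differed by less than the SD of the ALI arrays. Without ALI replicate 3 the median log2 fold change was -0.094, and without SMC replicate 2 it was 0.035.

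Single members followed this split to different degrees. The sign was negative in all 3 passages for 13 mitochondrial members (22.4%) and positive in all 3 for 4 (6.9%), next to 21% and 23.2% of all genes.

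**Figure D4:**
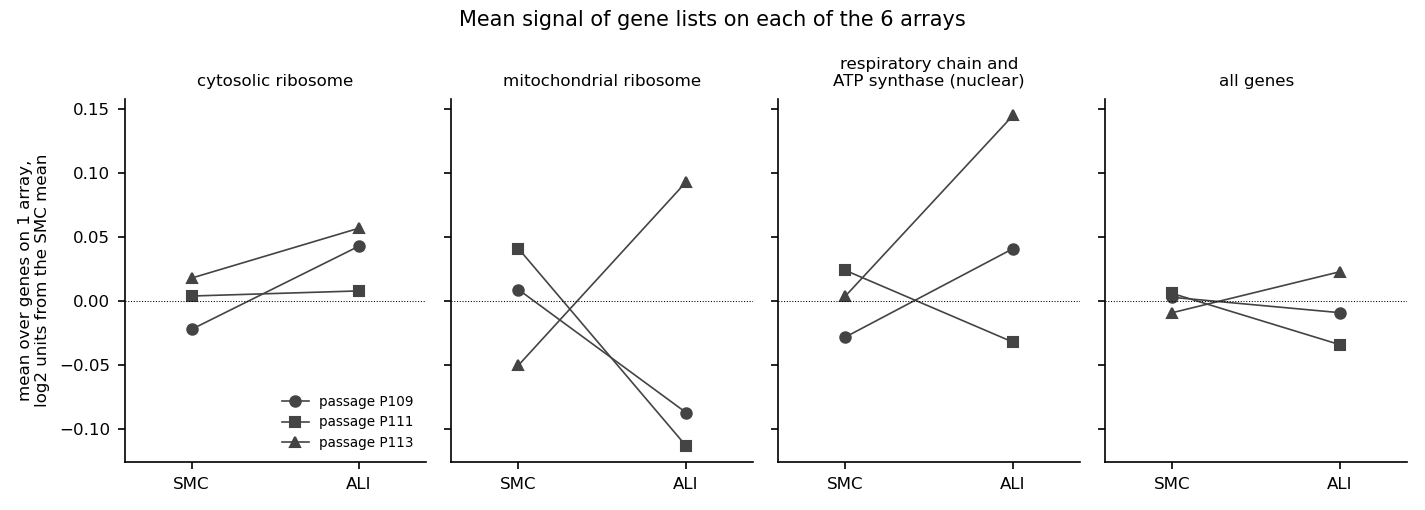
Mean log2 signal over the genes of a list on each array, as the distance from the mean of the 3 SMC arrays (y axis), for SMC and ALI (x axis), with a line for each passage. The mitochondrial ribosome is lower in ALI at passages P109 and P111 and higher at passage P113, where ALI replicate 3 is 0.093 above the SMC mean, while the cytosolic ribosome stays within -0.022 and 0.057.

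In the mitochondrial large subunit, MRPL54 was 7.54, 7.42 and 7.45 in ALI and 7.74, 7.71 and 7.89 in SMC. No ALI array reached the SMC arrays, at a log2 fold change of -0.31 (SE 0.10, adjusted p = 0.211). MRPL45, which sits at the exit tunnel and holds the ribosome to the inner membrane, had 8.94, 8.95 and 9.01 in ALI and 9.31, 9.05 and 9.31 in SMC, or -0.26 on the log2 scale (SE 0.11, adjusted p = 0.348). MRPL36 read 8.97, 8.85 and 9.28 in ALI and 9.22, 9.39 and 9.31 in SMC. Here ALI replicate 3 lay among the SMC arrays, and the log2 fold change was -0.27 (SE 0.13, adjusted p = 0.398).

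MRPL33 differed most in the opposite direction. It had 8.96, 8.92 and 9.52 in ALI and 8.68, 8.76 and 8.93 in SMC. ALI replicate 3 was far above the other two, ALI replicate 2 lay within the SMC values, and the log2 fold change of 0.34 (SE 0.17) had an adjusted p of 0.407. A dimmer probe set of MRPL33 gave -0.08 (SE 0.26).

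In the small subunit, MRPS9 had 7.83, 7.71 and 7.93 in ALI and 8.21, 8.15 and 8.12 in SMC. All ALI arrays were lower, ALI replicate 3 included, at a log2 fold change of -0.33 (SE 0.10, interval from -0.57 to -0.10, adjusted p = 0.177). Its dimmer probe set gave -0.08 (SE 0.16). MRPS26 read 10.50, 10.57 and 10.51 in ALI and 10.75, 10.85 and 10.68 in SMC, again without overlap, at -0.23 (SE 0.10, adjusted p = 0.333). MRPS22 lay on the other side with 8.46, 8.77 and 8.66 in ALI and 8.47, 8.42 and 8.37 in SMC, or 0.21 (SE 0.11, adjusted p = 0.442), ALI replicate 1 lying among the SMC arrays. MRPS21 was at 0.09 (SE 0.13) and MRPS23 at 0.06 (SE 0.11). MRPS36, at 0.08 (SE 0.16), is now counted to the oxoglutarate dehydrogenase complex and not to the ribosome.

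Set side by side, the median log2 fold change of the cytosolic ribosome exceeded that of the mitochondrial ribosome by 0.061. On single arrays, the cytosolic mean exceeded the mitochondrial mean by 4.372, 4.364 and 4.206 log2 units on ALI replicates 1 to 3 and by 4.211, 4.206 and 4.311 on SMC replicates 1 to 3. Probe sets differ in brightness, so the size of this gap carries no ratio of transcripts, and only its change between arrays can be read. It was larger in ALI at passages P109 and P111 and smaller in ALI at passage P113. The means of 4.314 ± 0.0936 in ALI and 4.243 ± 0.0592 in SMC (SD, n = 3) differed by 0.071, less than the SD of the ALI arrays. No difference between the ribosomes was thus shown beyond the spread of the arrays. Under the alternatives the difference of the medians ranged from 0.012 without SMC replicate 2 to 0.135 without SMC replicate 3, and quantile normalization gave 0.018.

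Of the 122 genes, 38 had further probe sets, 51 in all, which were dimmer by definition. For the cytosolic genes the 32 further probe sets were a median of 6.35 log2 units dimmer, and 27 of them were at least 3 units dimmer. Their log2 fold changes ran from -0.30 to 1.02, a wider range than that of the brightest probe sets, and 12 of 32 had the opposite sign. For the mitochondrial genes, 7 of 19 had the opposite sign. None of the 51 was called by limma without the block, with a lowest adjusted p of 0.108. At an unadjusted p under 0.05, 4 were higher and 3 lower.

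With the passage as a block, 2 of these 51 probe sets were called higher in ALI, both of cytosolic genes, and 0 lower. Over all 23999 probe sets, 480 were called higher and 796 lower with the block. The count of 2 is therefore not read as particular to the ribosome. Both probe sets were chosen after their values were seen. A second probe set of RPS27A, which codes for ubiquitin fused to a small-subunit protein, read 9.42, 8.92 and 9.82 in ALI and 8.17, 8.11 and 8.83 in SMC. The log2 fold change was 1.02 (SE 0.26), with an adjusted p of 0.108 without and 0.00339 with the block. It was called with the block also without any 1 passage, at adjusted p-values from 0.00876 to 0.0112. The brightest probe set of RPS27A, however, differed by 0.10 log2 units (SE 0.09).

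For RPL23 of the large subunit, a dimmer probe set read 10.20, 10.47 and 9.93 in ALI and 9.71, 9.71 and 9.39 in SMC. The log2 fold change of 0.60 (SE 0.16) had an adjusted p of 0.126 without and 0.019 with the block. Its call was lost without passage P109 (adjusted p = 0.0587) and without passage P111 (adjusted p = 0.0931). The brightest probe set of RPL23 differed by 0.04 and another dimmer one by 0.01. RPLP0 gave 0.40 (SE 0.10, adjusted p = 0.116) on its dimmer probe set, beside 0.00 on the brightest. Which transcripts the dimmer probe sets measure was not tested.

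**Figure D5:**
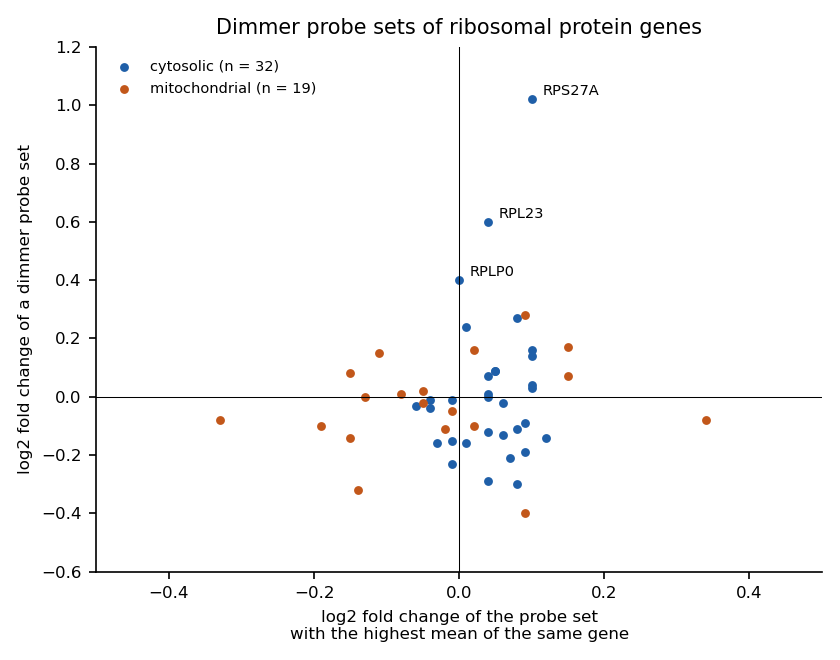
Log2 fold change of ALI over SMC on the brightest probe set of a gene (x axis) and on each of its dimmer probe sets (y axis), for 32 cytosolic (blue) and 19 mitochondrial (orange) probe sets. Dimmer probe sets of RPS27A, RPL23 and RPLP0 lie at 1.02, 0.60 and 0.40, while the brightest of the same genes lie between 0.00 and 0.10.

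Genes that act with the ribosome were looked at from lists written from general knowledge. Ribosomal subunits whose symbols fall outside the rule were close to the members, with RACK1 at -0.05 and FAU at 0.02 for the cytosolic and DAP3 at -0.23, GADD45GIP1 at 0.13, CHCHD1 at -0.05 and PTCD3 at 0.03 for the mitochondrial ribosome. For DAP3, a small-subunit protein that binds GTP, the adjusted p was 0.384. None of these 6 was called.

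Of 74 genes of ribosome assembly in the nucleolus, 0 were called and 1 was higher and 2 were lower at an unadjusted p under 0.05, with a median log2 fold change of 0.03. NPM1, a nucleolar chaperone, was farthest from 0 at -0.43 (SE 0.18, adjusted p = 0.326), followed by UTP18 at -0.35 (SE 0.10, adjusted p = 0.129). The 17 genes of RNA polymerases I and III, which make the ribosomal RNAs and tRNAs, had a median of 0.03 and 0 calls, with 0 at an unadjusted p under 0.05. Their farthest members were POLR3C at -0.20 and MAF1, a repressor of polymerase III, at 0.16.

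For 43 cytosolic translation factors the median was -0.01, with 0 called and 0 at an unadjusted p under 0.05. EIF2B1 at -0.25 and EIF2S2 at -0.24 were farthest from 0. The 18 mitochondrial translation factors and tRNA synthetases had a median of -0.01 and 0 calls, with 1 lower at an unadjusted p under 0.05. This was WARS2, the mitochondrial tryptophanyl-tRNA synthetase, at -0.46 (SE 0.14, adjusted p = 0.167), and GATB came next at -0.33. Of 22 genes of mitochondrial ribosome assembly and mitochondrial transcription, 0 were called and 1 was higher at an unadjusted p under 0.05, namely MALSU1 at 0.31 (SE 0.12, adjusted p = 0.305). TFAM, which packs and transcribes mitochondrial DNA, was at -0.21. For 11 regulators of ribosomal protein synthesis, the median was 0.01 with 0 called, and RPS6KA3 at -0.42 and MYC at -0.33 (SE 0.52) were farthest from 0.

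The respiratory chain and ATP synthase take up the products of the mitochondrial ribosome. Of their 60 nuclear-coded subunits, 1 was called, NDUFA4, first assigned to complex I and now to cytochrome c oxidase, which rose by 0.51 log2 units in ALI (SE 0.09, adjusted p = 0.037). That call was lost when any 1 array was left out, at adjusted p-values from 0.0602 to 0.159. Of all genes, 1.02% were called higher. With the passage as a block, 2 of the 60 were called higher and 0 lower, beside 152 and 254 of all 6765 genes. The median of the list was 0.04. At an unadjusted limma p under 0.05, 8 of the 60 were higher and 2 lower, beside 7.1% and 8.91% of all genes. On the arrays, ALI was below SMC at passage P111 and above it at passage P113, as for the mitochondrial ribosome, with ALI replicate 2 at 10.73 and ALI replicate 3 at 10.907, whereas at passage P109 ALI (10.803) was above SMC (10.734). The SMC arrays lay between 10.734 and 10.786.

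Proliferation markers, in contrast, lay mostly below 0 in ALI. Of 17, 15 were below 0 with a median of -0.49. Without the block 0 were called, and CCNB2, a cyclin of mitosis, came closest at -0.81 (SE 0.16, adjusted p = 0.0514), while CCNA2 was at -1.04 (SE 0.21, adjusted p = 0.0542) and AURKA at -0.98 (SE 0.26, adjusted p = 0.122). At an unadjusted limma p under 0.05, 10 of the 17 were lower, beside 8.91% of all genes. With the block, 8 were called lower, beside 254 of all 6765 genes. The cytosolic ribosomal proteins had a median of 0.04 and the mitochondrial ones of -0.02 in the same samples, and the part of proliferation in either was not tested. Markers of other cell types gave 1 call, PECAM1 of the endothelial list at -0.50 (SE 0.10, adjusted p = 0.0448), which was lost without any 1 array (adjusted p from 0.0792 to 0.149). All 5 immune markers lay at or under 5.48. In limma 0 of the 9 epithelial, 5 enterocyte, 7 fibroblast and smooth muscle, 5 immune and 6 liver markers were called, and at an unadjusted p under 0.05 the only one of these was VIL1 at -0.45 (SE 0.19, adjusted p = 0.332).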

How the data were processed

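RNA of IPEC-1 cells was measured on 6 Affymetrix porcine arrays, 3 of each culture type. Per the methods, the authors used GCOS, inspected array quality with arrayQualityMetrics and normalized by GC-RMA. The submitters' processing notes give GCOS version 1.1.1, which differs from the version named in the methods. The deposited log2 values, 1 column per array, name no normalization and were used as they are, without detection calls. Arrays have no depth, and their number limits the precision. The p-values measure the spread between 3 passages of 1 line.

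After leaving out 124 Affymetrix control probe sets, ALI and SMC were compared over 23999 probe sets in limma 3.58.1 (lmFit, then eBayes, R 4.3.3), with no other term in the model. Adjusted p-values (Benjamini-Hochberg) are over all probe sets, also where only members are printed, and a call needs an adjusted p under 0.05. SE and 95% intervals are limma's moderated ones. The platform annotation gave 1 symbol to 10069 probe sets, more than 1 to 198 and none to 13732. Only the first kind was used to name a gene, which leaves out RPL10, RPL35A, RPL36, MRPL22 and MRPL55. The probe set with the highest mean stood for a gene, as 2261 of 6765 genes had more than 1. Of the symbols that meet the rule in RefSeq's pig genes (Sscrofa11.1), 64 of 84 cytosolic and 57 of 76 mitochondrial ones were measured. The fit was tested on simulated data.

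Arrays of passages P109 and P113 deviated together from their group means, with correlations of 0.34 and 0.451, against -0.424 to 0.219 between passages. For passage P111 the correlation of 0.14 lay within the range between passages. The labels give the passage, which pairs the arrays. The main fit holds no passage term, so its p-values, SE and intervals do not use this pairing. The fit with the passage as a block is an alternative, as are quantile normalization, median centring, an intensity trend, filters on dim probe sets, other rules for the probe set of a gene, the methods' t-test and leaving out each array. Lists were described by counts and medians, and no list was tested. The members, lists and tests were chosen with earlier results of these data known. Named are any called members, the 3 members per subunit farthest from 0, the 2 highest and 2 lowest mean signals per ribosome, paralogs with their own symbols, 4 reference members, and in each other list the called genes or the 2 farthest from 0. Promoter sequences were not used here, so no motifs were counted.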

Additional observations from a re-analysis of the deposited data

How the results depend on the processing

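Calls of members did not depend on the settings tried with limma. The cytosolic and mitochondrial ribosomal proteins had 0 members called higher and 0 called lower with quantile normalization, median centring, an intensity trend, each filter on dim probe sets, each rule for the probe set of a gene and without each array in turn. Over 372 values of the 25 named members under these alternatives, 0 were called, the lowest adjusted p was 0.111, and the sign of the unrounded value changed 15 times, in 8 genes within 0.09 of 0 (RPL3, RPL7L1, RPL36AL, RPLP0, RPS20, MRPS21, MRPS23 and MRPS36). The methods' t-test at an unadjusted p gave 10 cytosolic members higher and 1 lower and 6 mitochondrial members lower, and 1468 probe sets higher and 1423 lower in all. After Benjamini-Hochberg adjustment it called 0 probe sets in either direction. It was run here as an unpaired t-test with equal variances. The paper names adjusted p-values and reports significantly regulated genes in both directions, which this run did not reproduce, and the reason was not tested. The passage as a block raised the probe sets called from 159 to 480 higher and from 296 to 796 lower and changed no member's call.

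The median log2 fold change of the cytosolic members was 0.018 when all probe sets of a gene were averaged, by which dimmer probe sets enter, and 0.032 to 0.05 without single arrays. That of the mitochondrial members ran from -0.094 without ALI replicate 3 to 0.035 without SMC replicate 2. Without single arrays the difference of the ribosomes was 0.012 to 0.135, the probe sets called higher were 42 (without SMC replicate 2) to 174, and those called lower 71 (without ALI replicate 1) to 258. Mitochondrial members lower at an unadjusted p numbered 2 to 8. Leaving out RPS19BP1 and MRPS36, chosen after seeing the data, kept the sign of both medians. Where not stated, the cause was not tested. The 3 arrays per group limit what could be seen, and whether the position of the cytosolic members near the upper end of the scale does so was not tested.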
